A study of Homo sapiens with 6 samples.

Results

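AP-1 is a transcription factor made of pairs of basic leucine zipper proteins, and its subunits FOSL1, FOSL2, FOS, FOSB, JUN, JUNB, JUND, ATF3, JDP2 and BATF3 are the subject here. These 10 genes of the 58302 in the deposited table were chosen by gene name, with the S541 and DMSO values of several of them already known. Their differences between the groups are therefore given as a description with no test. Transcripts were measured by RNA-seq in cells labelled A549, a line derived from a human lung adenocarcinoma. The tested libraries came from cells given 1.0 µM S541, which the labels also name 5n, for 48 h (n = 3), and the others from cells given DMSO, the solvent (n = 3). No allele, transgene or further agent is given for either group, and all 6 libraries share the same cell line. The compound comes from a study whose title concerns carbazole derivatives and mitochondrial homeostasis.

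FOS proteins pair with JUN proteins and not with themselves, while JUN proteins can also pair with one another. The pairs bind short DNA sites next to many genes of growth, invasion and stress. FOS, FOSB, JUN and ATF3 are known as immediate early genes, which growth factor and stress signals switch on within minutes through the ERK, JNK and p38 kinases. FOSL1 and FOSL2 are known as slower members that follow sustained ERK signalling, and JUND is known as a subunit that most resting cells carry.

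Total counts were 13956648 to 15794403 in S541 libraries and 14927663 to 17044139 in DMSO libraries. All 10 subunit genes passed the filter on low counts, which left 15847 genes. No label states that replicates came from separate cultures. The p-values below therefore reflect how far libraries of a group differ, and this may be technical spread. The summed level of 5 epithelial markers was 1850 to 2050 CPM in S541 libraries and 2620 to 2920 CPM in DMSO libraries. KRT8 and KRT18 carried nearly all of it. EPCAM averaged 10.3 CPM in S541 libraries and 8.85 CPM in DMSO libraries. KRT19 averaged 1.17 CPM in S541 libraries and 0.346 CPM in DMSO libraries, and CDH1 averaged 0.566 CPM in S541 libraries and 1.08 CPM in DMSO libraries. The summed level of 5 enzymes for which A549 is known was 178 to 230 CPM in S541 libraries and 265 to 295 CPM in DMSO libraries. NQO1, a quinone reductase, gave most of it, at 188 CPM in S541 libraries and 239 CPM in DMSO libraries on average. AKR1C1 averaged 15.4 CPM in S541 libraries and 31.2 CPM in DMSO libraries, and ALDH3A1 averaged 4.7 CPM in S541 libraries and 8.01 CPM in DMSO libraries. AKR1B10 averaged 0.743 CPM in S541 libraries and 0.862 CPM in DMSO libraries, and ALDH1A1 averaged 0.0417 CPM in S541 libraries with no count in DMSO libraries. The low levels of AKR1B10 and ALDH1A1 go against what is known of A549. AKR1C1 and ALDH3A1 were detected but far below NQO1, and KRT19 and CDH1 among the epithelial markers were low as well. The label was kept. Retinal markers, listed because the word retinal stands in the design text of the series, summed to at most 1.23 CPM in S541 libraries and 1.63 CPM in DMSO libraries, with CRX at 0. Leukocyte, endothelial and fibroblast markers summed to at most 2.52, 13.9 and 36.7 CPM in S541 libraries and 3.06, 11.5 and 57.9 CPM in DMSO libraries, with CD3E, KDR and LUM at 0. The part of the epithelial and fibroblast differences in the values below was not tested. In bulk RNA, fewer cells of a type and less RNA per cell cannot be told apart.

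FOSL1, FOSB and JUN were higher in S541 libraries, by 4.02-fold, 5.58-fold and 2.51-fold. JUND and JDP2 were lower, at 54.5% and 51.7% of their DMSO levels. The S541 and DMSO libraries did not overlap for these 5 genes, nor for FOS and BATF3, while FOSL2, JUNB and ATF3 overlapped. Over all 15847 genes tested, 8.19% had an adjusted p under 0.05 in edgeR's quasi-likelihood test, 4.02% higher and 4.17% lower, and 31.1% had groups that did not overlap. Among the 10 subunit genes, 5 passed that threshold, 3 higher and 2 lower, and 7 did not overlap. Because the genes were chosen with these values known, those counts are no test of them, and nothing is read from the shares. The median log2 fold change was 0.60 over the 10 subunit genes, against -0.00193 over all genes tested.

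**Figure D1:**
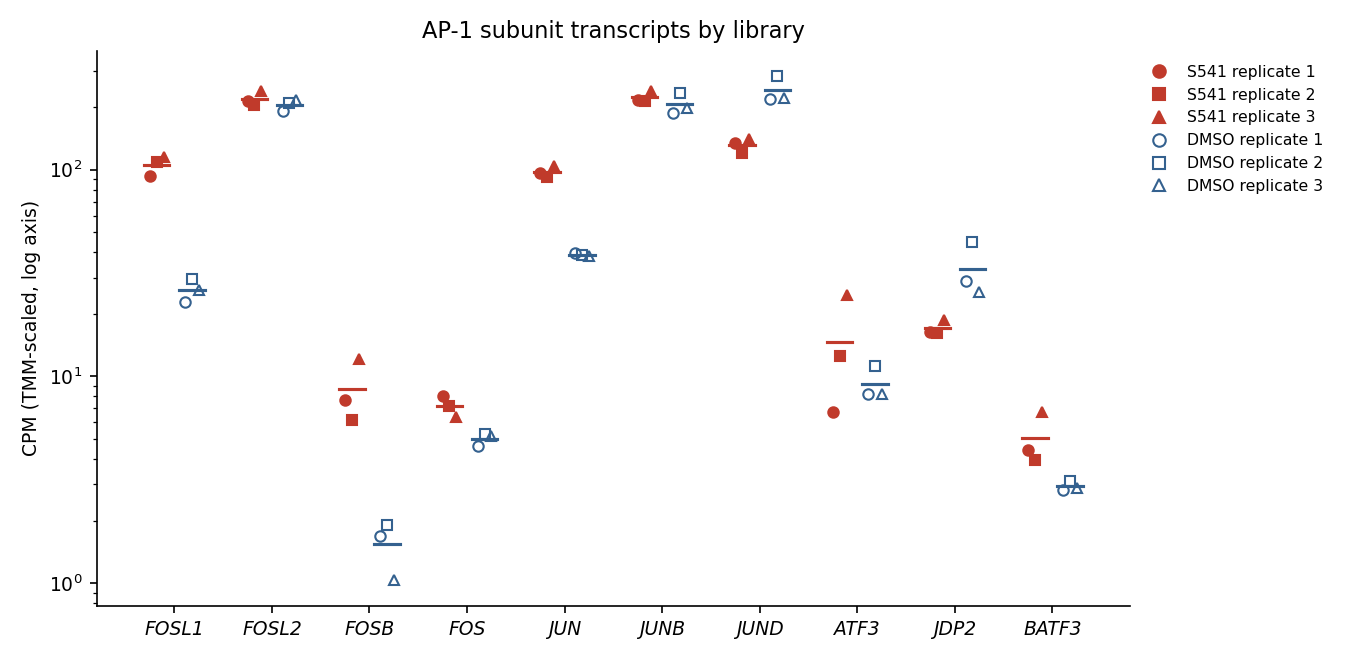
CPM of each subunit gene in each library on a log axis, with filled red symbols for S541, open blue symbols for DMSO, a symbol shape per replicate number and a bar at each group's mean. FOSL1, FOSB, FOS, JUN and BATF3 lie higher in all 3 S541 libraries, JUND and JDP2 lie lower, and the other genes overlap.

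Promoter windows are printed for 4 of the genes, each shown because it holds a motif that AP-1 or ATF proteins or the basal machinery are known to bind. RefSeq gave windows of GRCh38.p14 from 250 bases before to 50 bases after the start for 8 of the 10 genes, 11 windows in all, with none used for FOSL1 and BATF3. Each is written 5′ to 3′ on the gene's strand, with the motif found in capitals. JUN lies at chr1:58783998-58784297 on the minus strand, FOSB at chr19:45467746-45468045 on the plus strand, JUND at chr19:18281573-18281872 on the minus strand and the first of the ATF3 windows at chr1:212565157-212565456 on the plus strand.
JUN: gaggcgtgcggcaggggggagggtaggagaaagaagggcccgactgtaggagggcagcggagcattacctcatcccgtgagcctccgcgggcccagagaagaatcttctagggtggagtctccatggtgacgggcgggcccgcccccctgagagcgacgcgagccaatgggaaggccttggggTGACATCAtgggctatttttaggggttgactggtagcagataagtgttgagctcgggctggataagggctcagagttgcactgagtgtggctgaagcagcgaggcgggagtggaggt
ATF3: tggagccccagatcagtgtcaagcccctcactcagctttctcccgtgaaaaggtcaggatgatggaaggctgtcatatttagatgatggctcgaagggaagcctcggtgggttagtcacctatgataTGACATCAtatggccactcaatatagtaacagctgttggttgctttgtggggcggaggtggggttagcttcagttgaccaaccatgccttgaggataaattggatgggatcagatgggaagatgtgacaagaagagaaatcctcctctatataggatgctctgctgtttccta
JUND: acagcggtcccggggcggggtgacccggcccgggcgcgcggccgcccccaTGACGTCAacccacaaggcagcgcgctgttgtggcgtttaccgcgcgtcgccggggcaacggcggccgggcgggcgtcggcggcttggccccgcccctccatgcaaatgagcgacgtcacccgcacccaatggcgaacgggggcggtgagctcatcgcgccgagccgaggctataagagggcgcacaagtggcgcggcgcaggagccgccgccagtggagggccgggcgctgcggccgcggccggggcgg
FOSB: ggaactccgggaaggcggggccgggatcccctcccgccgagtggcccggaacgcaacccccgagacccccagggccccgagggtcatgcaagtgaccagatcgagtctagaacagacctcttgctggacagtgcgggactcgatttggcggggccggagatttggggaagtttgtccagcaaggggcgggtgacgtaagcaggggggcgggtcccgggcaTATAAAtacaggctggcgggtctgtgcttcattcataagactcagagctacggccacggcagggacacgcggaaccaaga

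Positions count from the RefSeq start, with 1 as its first transcribed base and no position 0, and both strands were searched. Gene positions given below are from GENCODE, whose start can differ. The windows of JUN and FOSL2, for example, lie wholly inside their GENCODE genes. The JUN capitals are TGACATCA at -67 to -60, a variant of the AP-1 motif that JUN and ATF proteins are known to bind, and the ATF3 capitals are the same letters at -123 to -116. That motif was added after the windows had been seen. It occurs in 2.61% of all 35116 windows and in 2 of the 11 subunit windows, which belong to 2 of the 8 genes. The JUND capitals are TGACGTCA, the full motif of CREB and ATF proteins, at -200 to -193. That motif is in 1.85% of all windows and in 1 of the 11 subunit windows, from 1 of the 8 genes. TGACTCA, the plain AP-1 motif, is in 4.95% of all windows and was found at 5 to 11 in FOSL2, just after the RefSeq start. The FOSB capitals are TATAAA at -30 to -25. FOS carries TATAAA at -33 to -28 and JUNB at -31 to -26, while in ATF3 it is at -230 to -225 of the other window, and 11.5% of all windows hold it. The CArG box, the motif of SRF, was in none of the 11 windows and in 1.29% of all windows. No match overlaps another. The printed windows hold 62.0%, 48.0%, 77.0% and 64.0% G and C in JUN, ATF3, JUND and FOSB, against a median of 58.7% over all windows. A match is a description of letters, and a missing one says only that the letters are not in that window. JUN and ATF3, which share TGACATCA, differed in their values: JUN was higher in every S541 library and ATF3 overlapped.

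FOSL1 encodes FRA-1, a FOS-family protein without the strong activation domain of FOS, and it is known in lung and other carcinomas as a subunit tied to invasion. The gene (ENSG00000175592) lies at chr11:65892049-65900573 on the minus strand of hg38. It had 92.7, 109 and 115 CPM in S541 replicates 1, 2 and 3, against 22.9, 29.6 and 26.1 CPM in DMSO replicates 1, 2 and 3. The lowest S541 library was above the highest DMSO library. The means were 106 ± 11.4 CPM in S541 libraries and 26.2 ± 3.32 CPM in DMSO libraries (SD, n = 3 each), a log2 fold change of 2.01 ± 0.13 (SE). Leaving out each library in turn gave log2 fold changes of 1.92 to 2.10.

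FOSL2 encodes FRA-2, the close relative of FRA-1, and lies at chr2:28392448-28417312 on the plus strand. Its values were 215, 206 and 241 CPM in S541 libraries and 193, 210 and 217 CPM in DMSO libraries. The groups overlapped, and the log2 fold change was 0.09 ± 0.0915. The FOSL1 to FOSL2 ratio of FPKM, which is per length and formed within a library, was 1.08, 1.32 and 1.19 in S541 libraries and 0.297, 0.351 and 0.3 in DMSO libraries. FOSL1 was thus above FOSL2 per length in every S541 library and below it in every DMSO library.

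FOSB encodes an immediate early FOS protein and lies at chr19:45467995-45475179 on the plus strand. It was covered by few reads: 110, 98 and 187 counts in S541 libraries against 25, 32 and 17 counts in DMSO libraries. On the CPM scale these were 7.71, 6.13 and 12.1 in S541 libraries and 1.69, 1.92 and 1.03 in DMSO libraries, with means of 8.64 ± 3.08 CPM in S541 libraries and 1.55 ± 0.463 CPM in DMSO libraries. S541 replicate 3 stood above the other S541 libraries, and the groups did not overlap. The log2 fold change was 2.48 ± 0.33, the highest of the 10 genes, and ran from 2.16 to 2.68 when single libraries were left out.

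FOS, the founding member of the family, lies at chr14:75278774-75282230 on the plus strand. It had 8.06, 7.20 and 6.33 CPM in S541 libraries and 4.59, 5.28 and 5.14 CPM in DMSO libraries. All 3 S541 libraries were above all 3 DMSO libraries, by a smaller margin than FOSL1 or FOSB. The log2 fold change was 0.52 ± 0.162. The FOSB to FOS ratio of FPKM was 0.527, 0.47 and 1.05 in S541 libraries and 0.203, 0.2 and 0.11 in DMSO libraries.

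JUN encodes c-JUN, the JUN protein with the strongest known activation and the chief target of JNK. The gene, a single exon at chr1:58780788-58784327 on the minus strand, had 96.3, 92.3 and 104 CPM in S541 libraries and 39.5, 38.7 and 38.4 CPM in DMSO libraries. Replicates of each group lay close together, and the groups were far apart. Means were 97.4 ± 5.76 CPM in S541 libraries and 38.9 ± 0.559 CPM in DMSO libraries, with a log2 fold change of 1.33 ± 0.0868 that ran from 1.28 to 1.37 with single libraries left out.

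JUNB, known as a weaker activator that can oppose c-JUN, lies at chr19:12791496-12793315 on the plus strand. Its levels were 218, 214 and 240 CPM in S541 libraries and 188, 235 and 198 CPM in DMSO libraries. The groups overlapped, and the log2 fold change was 0.11 ± 0.105. HOOK2 on the other strand covers 14.2% of its exon bases, and the sources used here do not say if strand entered the counting.

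JUND, at chr19:18279760-18281622 on the minus strand, was lower in S541 libraries. It had 135, 121 and 140 CPM in S541 libraries and 220, 284 and 221 CPM in DMSO libraries. Every S541 library was below every DMSO library, and DMSO replicate 2 was the highest. Means were 132 ± 9.93 CPM in S541 libraries and 242 ± 36.4 CPM in DMSO libraries. The log2 fold change was -0.87 ± 0.121, and it was -0.74 to -0.94 with single libraries left out.

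**Figure D2:**
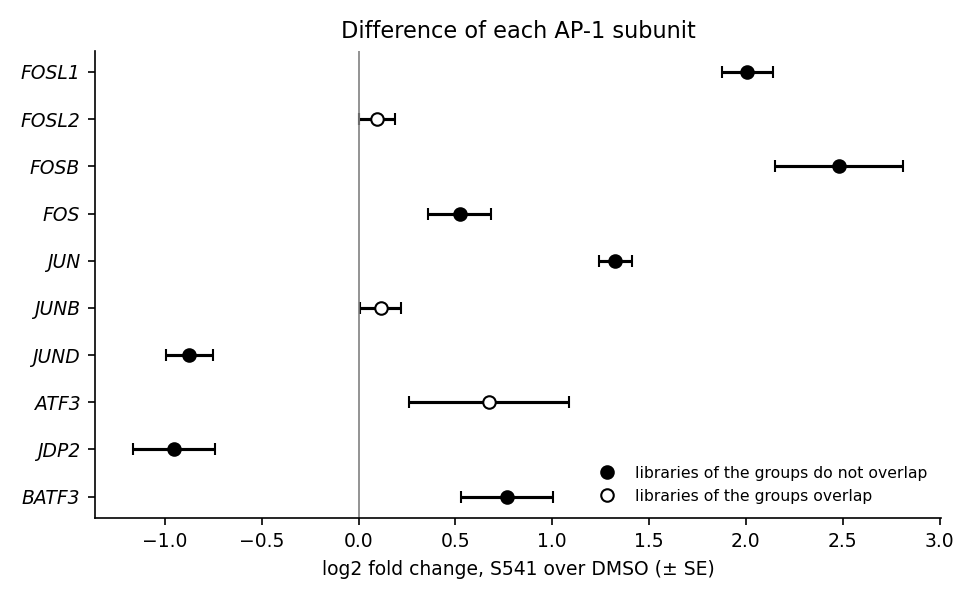
Log2 fold change of S541 over DMSO for each subunit gene, with bars for the SE of the edgeR fit (n = 3 libraries each) and filled points where the libraries of the groups do not overlap. FOSB, FOSL1 and JUN lie right of 0 by 1.33 or more, JUND and JDP2 lie left of it near -0.9, and FOSL2 and JUNB lie near 0.

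The JUN family did not share a direction: JUN was higher, JUNB overlapped and JUND was lower in S541 libraries. Within a library, the JUN to JUND ratio of FPKM was 0.477, 0.511 and 0.495 in S541 libraries and 0.12, 0.0911 and 0.116 in DMSO libraries. The JUNB to JUND ratio was 2.1, 2.3 and 2.23 in S541 libraries and 1.11, 1.08 and 1.17 in DMSO libraries. Neither ratio overlapped between the groups. Both are formed within a library, so the scaling of libraries does not enter them.

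ATF3, JDP2 and BATF3 are partners from neighbouring families. ATF3, a stress-induced protein that represses as a pair with itself, lies at chr1:212565334-212620777 on the plus strand. It had 6.73, 12.5 and 24.8 CPM in S541 libraries and 8.23, 11.2 and 8.22 CPM in DMSO libraries. The S541 libraries spread from below the DMSO range to well above it. Its log2 fold change of 0.67 ± 0.414 rested on S541 replicate 3 and was 0.07 without that library.

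JDP2, named as a dimerization partner of JUN, is known as a repressor of AP-1, and lies at chr14:75427716-75474111 on the plus strand. Its values were 16.4, 16.3 and 18.7 CPM in S541 libraries and 29.0, 44.9 and 25.5 CPM in DMSO libraries. The S541 libraries lay close together, below a wide DMSO group led by replicate 2. Means were 17.1 ± 1.39 CPM in S541 libraries and 33.2 ± 10.3 CPM in DMSO libraries, with a log2 fold change of -0.95 ± 0.211. That value was -0.67 without DMSO replicate 2.

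BATF3, best known from dendritic cells and T cells, pairs with JUN proteins and lies at chr1:212686418-212699985 on the minus strand. It had 4.42, 3.94 and 6.72 CPM in S541 libraries and 2.83, 3.12 and 2.90 CPM in DMSO libraries. The groups did not overlap. Its log2 fold change was 0.77 ± 0.236, and the value was 0.50 to 0.92 with single libraries left out.

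One library stood out within each group. S541 replicate 3 was the highest S541 library for 9 of the 10 genes, all but FOS. DMSO replicate 2 was the highest DMSO library for 8 of the 10, all but JUN and FOSL2. In a principal component analysis of all genes tested, the first component, with 38.9% of the variance, separated the groups. The second, with 21.4%, placed S541 replicate 3 at -20.5 and DMSO replicate 2 at -34.4, against 7.95 to 12.5 for the other S541 libraries and 11.7 to 22.9 for the other DMSO libraries. The part of these libraries in the values was not tested beyond leaving each out.

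Per length, on the deposited FPKM scale, JUNB was the most abundant subunit in both groups, at 124 ± 6.1 FPKM in S541 libraries and 112 ± 12.4 FPKM in DMSO libraries. In S541 libraries it was followed by JUND at 56.2 ± 3.9, JUN at 27.7 ± 1.29, FOSL1 at 20.6 ± 1.94 and FOSL2 at 17.3 ± 1.15 FPKM, and only FOSL1 and FOSL2 overlapped among those neighbours. BATF3 at 1.79 ± 0.5, ATF3 at 1.51 ± 0.924, JDP2 at 1.47 ± 0.0956, FOS at 0.798 ± 0.109 and FOSB at 0.526 ± 0.179 FPKM came far below. Of those, the neighbours BATF3 and ATF3, ATF3 and JDP2, and FOS and FOSB overlapped. In DMSO libraries JUND, at 101 ± 14.2 FPKM, overlapped JUNB. FOSL2 at 15.9 ± 0.983, JUN at 10.9 ± 0.194 and FOSL1 at 5.03 ± 0.597 FPKM followed without overlap. JDP2 at 2.79 ± 0.841, BATF3 at 1.04 ± 0.0429, ATF3 at 0.936 ± 0.162, FOS at 0.544 ± 0.0374 and FOSB at 0.0924 ± 0.027 FPKM came last, and only BATF3 and ATF3 overlapped among these.

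The summed FPKM of the 10 genes was nearly level, at 249, 240 and 266 in S541 libraries and 230, 282 and 239 in DMSO libraries, and the groups overlapped. Its makeup differed. The FOS family took 15.6 ± 0.709% of the sum in S541 libraries and 8.66 ± 0.766% in DMSO libraries. The JUN family took 82.5 ± 1.0% in S541 libraries and 89.5 ± 0.557% in DMSO libraries. JUND alone took 22.3% in S541 libraries and 40.2% in DMSO libraries. JUN took 11.0% in S541 libraries and 4.37% in DMSO libraries, and FOSL1 took 8.2% in S541 libraries and 2.01% in DMSO libraries. ATF3, JDP2 and BATF3 together took 1.88% in S541 libraries and 1.89% in DMSO libraries. FPKM is a level of transcript and says nothing of the amount of protein or of which subunits pair.

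**Figure D3:**
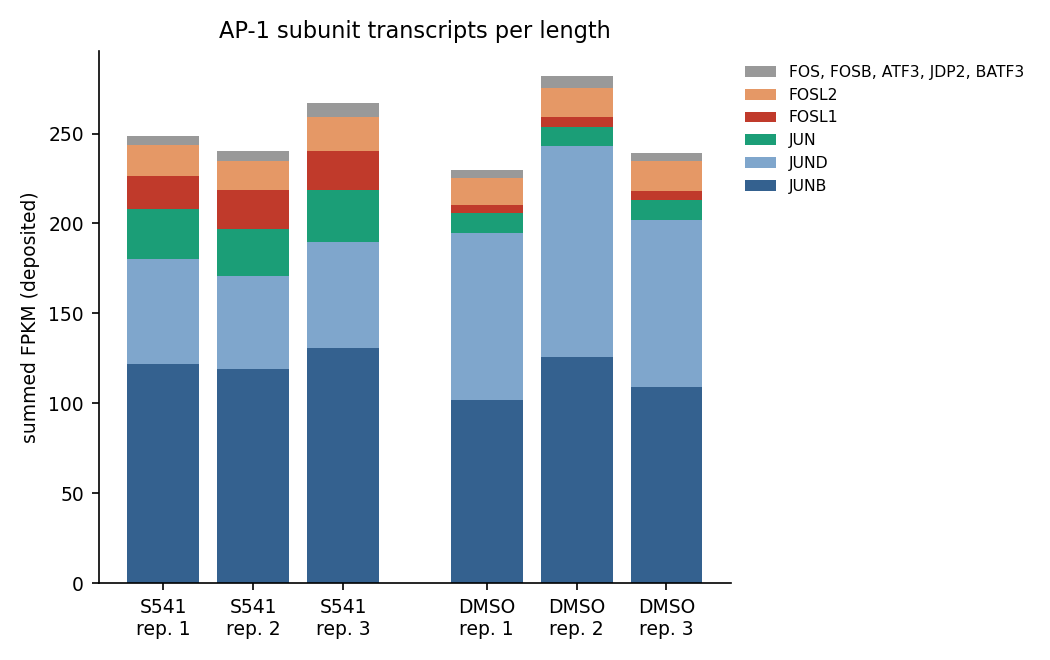
Stacked FPKM of the subunit genes in each library, S541 libraries left and DMSO libraries right. The bars reach similar heights (240 to 266 in S541 libraries and 230 to 282 in DMSO libraries), while the JUND part is thinner and the JUN and FOSL1 parts are thicker in S541 libraries.

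The authors' deposited table gives log2 fold changes of 2.01 for FOSL1 and 1.32 for JUN and marks both UP, among 145 genes marked UP and 157 marked DOWN. The other 8 subunits carry no mark in the authors' deposited table, although it lists 2.48 for FOSB.

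AU-rich letters in the 3′ untranslated region are the known binding sites of decay proteins such as ZFP36. In 1 GENCODE 29 transcript per gene, ATTTA was found in the 3′ region of all 10 subunits, against 68.5% of 12705 genes with at least 100 bases there. FOS had 5 matches in 806 bases, FOSL2 had 9 in 4864 and FOSB had 3 in 2166. FOSL1 had 1 in 666 bases, JUN had 3 in 1287 and JUND had 1 in 681. FOS, with 6.2 matches per kb, and JUNB, with 4.0, were the densest, against a median of 1.58 over those genes. FOSL1 with 1.5, JUND with 1.47, FOSB with 1.39 and JDP2 with 0.647 were below that median. The shares of genes with a match take no account of length. The 3′ region had 373 bases in BATF3 and 4864 in FOSL2, against a median of 994 over those genes. The longer TATTTAT was found in 7 of the 10, FOSL1, FOSL2, FOS, FOSB, JUN, JUND and ATF3, against 30.6% of genes. FOSL1, FOSB and JUN, which were higher in S541 libraries, hold it, and so does JUND, which was lower. FOS, which was higher without passing the threshold on adjusted p, holds it as well, as do FOSL2 and ATF3, which overlapped. It was not found in JUNB, which overlapped, or in JDP2, which was lower. Nor was it found in BATF3, which was higher without passing that threshold. No test was made.

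The other genes of the pathway were taken as 8 lists with 126 different genes, of which 112 were tested. By edgeR's quasi-likelihood test with Benjamini-Hochberg adjustment over all 15847 genes, 33 of the 112 passed an adjusted p of 0.05, 31 higher and 2 lower, against 8.19% of all genes tested. The median log2 fold change of the 112 tested genes was 0.23. CREB3L1 and EGR4, among the 31 higher, passed the count filter only through their S541 libraries. The lists were drawn up with earlier results of these data known, so the counts are a description. Without S541 replicate 1, 2 or 3 or DMSO replicate 1 or 3 the count was 17 to 21, and without DMSO replicate 2 it was 34.

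**Figure D4:**
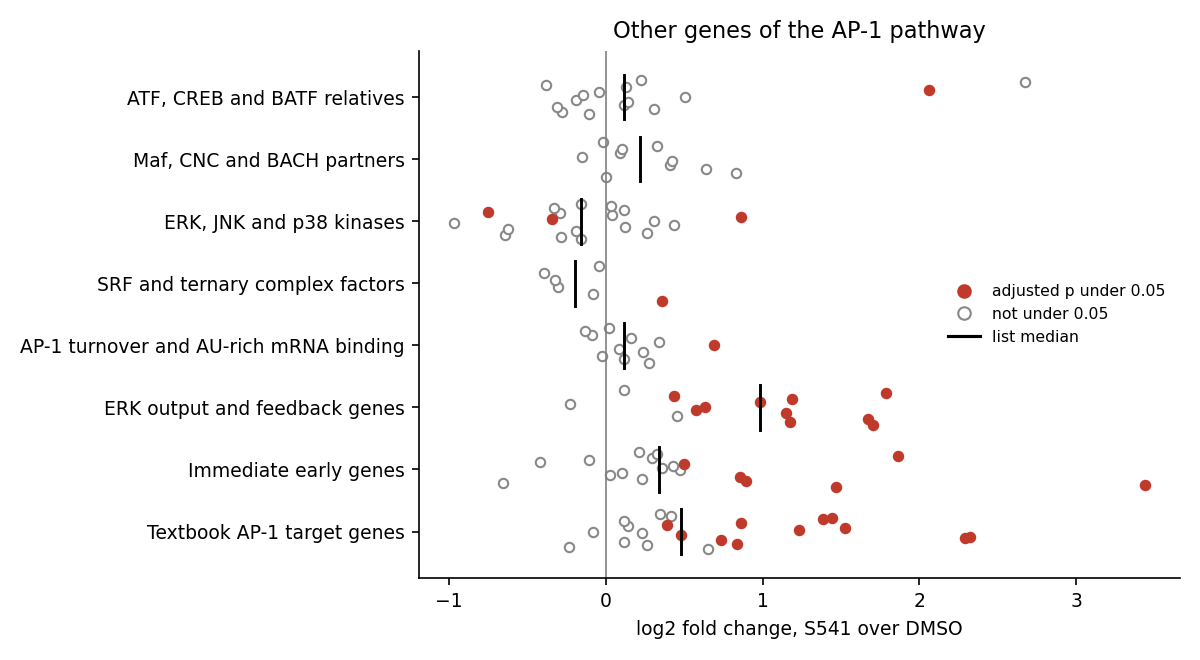
Log2 fold change of S541 over DMSO for each tested gene of the 8 pathway lists, with filled red points past an adjusted p of 0.05, open points not past it and a black bar at each list's median. Red points gather right of 0 in the lists of ERK output, immediate early and target genes, and the other lists hold at most 3 each.

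Kinases of the ERK, JNK and p38 pathways act upstream of AP-1. Of 19 of their genes tested, 1 rose and 2 fell, where 8.19% of all genes tested changed, with a list median of -0.16. MAP2K3 and MAP2K6 both encode kinases that activate p38. MAP2K3 rose to 101 ± 21.5 CPM in S541 libraries, against 55.6 ± 6.69 CPM in DMSO libraries (log2 fold change 0.86 ± 0.162, adjusted p = 0.0215). MAP2K6 fell to 37.4 ± 1.02 CPM in S541 libraries, against 62.9 ± 5.55 CPM in DMSO libraries (log2 fold change -0.75 ± 0.0986, adjusted p = 0.00707). The partners for p38 thus moved in opposite directions. MAP2K2, which activates ERK, fell by 0.35 on the log2 scale (106 ± 5.1 CPM in S541 libraries and 135 ± 1.24 CPM in DMSO libraries, adjusted p = 0.0353). MAP2K3 lost its call without S541 replicate 2 or DMSO replicate 1 or 3 (adjusted p = 0.0609 to 0.0707). MAP2K2 lost it without any S541 library or without DMSO replicate 1 or 3, and in 2 further fits (adjusted p = 0.0614 to 0.132). The list held 1 called gene without DMSO replicate 1 and 6 in DESeq2.

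SRF, which drives FOS and other immediate early genes together with ternary complex factors, was at 118 ± 2.43 CPM in S541 libraries and 92.5 ± 7.75 CPM in DMSO libraries (log2 fold change 0.36 ± 0.0889, adjusted p = 0.0498). It was the 1 gene of 6 in its list to pass, where 8.19% of all genes tested changed, and the list median was -0.195. SRF lost its call without any S541 library or without DMSO replicate 1 or 3, and in 3 further fits (adjusted p = 0.0545 to 0.139). Of 11 genes of AP-1 turnover and AU-rich mRNA binding, 1 rose, a share near the 8.19% of all genes tested. Nothing is read from that count, and the list median was 0.118. The gene was ZFP36, which binds the AU-rich letters described above. It had 23.5 ± 1.3 CPM in S541 libraries and 14.5 ± 1.13 CPM in DMSO libraries (log2 fold change 0.69 ± 0.117, adjusted p = 0.0146). ZFP36 lost its call without S541 replicate 1 or DMSO replicate 3, and with the replicate number as a block (adjusted p = 0.0558 to 0.0688).

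In edgeR with TMM scaling and all libraries, the other leucine zipper genes were called at a share near or below the 8.19% of all genes tested. Of 15 ATF, CREB and BATF relatives tested, 1 was called, CREB3L1, a factor held in the endoplasmic reticulum membrane. Its level was low, at 1.24 ± 0.422 CPM in S541 libraries and 0.288 ± 0.116 CPM in DMSO libraries (log2 fold change 2.06 ± 0.434, adjusted p = 0.0299). CREB3L1 passed the count filter only through its S541 libraries, so nothing is read from its direction. The call was lost without any S541 library or without DMSO replicate 1 or 3, and with the replicate number as a block (adjusted p = 0.0535 to 0.109). With at least 1 CPM asked for in 3 libraries CREB3L1 was not tested, and the list held 0 called genes. The list held 2 with library totals, in DESeq2 and in limma-voom, and 3 without DMSO replicate 2. Of 10 Maf, CNC and BACH genes, 0 passed in edgeR with all libraries and 1 without S541 replicate 2, and 2 had an unadjusted p under 0.05. MAFK, a small Maf protein, averaged 416 ± 44 CPM in S541 libraries and 310 ± 56.4 CPM in DMSO libraries (adjusted p = 0.116), and TMEM184A on the other strand covers 18.1% of its exon bases. NFE2L1, a CNC factor that drives proteasome genes, averaged 222 ± 27.6 CPM in S541 libraries and 208 ± 16.4 CPM in DMSO libraries (adjusted p = 0.668).

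ERK output and feedback genes, which ERK signalling is known to switch on, rose in 10 of the 13 tested, with none lower. The list median was 0.98 on the log2 scale, and 8.19% of all genes tested changed. PHLDA1, an early gene of growth factor signalling, had 104, 117 and 111 CPM in S541 libraries and 32.8, 30.9 and 32.3 CPM in DMSO libraries (log2 fold change 1.79 ± 0.0884, adjusted p = 0.000195). DUSP4, a phosphatase of nuclear ERK and JNK, had 101, 100 and 106 CPM in S541 libraries and 28.1, 35.3 and 30.6 CPM in DMSO libraries (log2 fold change 1.71 ± 0.107, adjusted p = 0.000531). The libraries of the groups lay far apart for both. DUSP6, the phosphatase of cytoplasmic ERK, was at 10.0 ± 0.364 CPM in S541 libraries and 3.15 ± 0.447 CPM in DMSO libraries (log2 fold change 1.67 ± 0.165, adjusted p = 0.00302). ETV5, an ETS factor, was at 24.1 ± 1.31 CPM in S541 libraries and 10.6 ± 1.7 CPM in DMSO libraries (log2 fold change 1.19 ± 0.145, adjusted p = 0.00538). Exons of another gene on the other strand cover 40.5% of DUSP6 and 16.5% of PHLDA1, so their counts are less certain. All 4 kept their calls in every alternative fit. The list held 7 or 8 called genes without S541 replicate 1, 2 or 3 or DMSO replicate 1 or 3. It held 7 with the replicate number as a block.

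Of 18 immediate early genes tested besides the subunits, 6 rose and none fell, where 8.19% of all genes tested changed. The list median was 0.34. EGR4, 1 of the 6, was near the floor, at most 1.13 CPM in S541 libraries and 0.242 CPM in DMSO libraries. It passed the count filter only through its S541 libraries, so nothing is read from its direction. The list held 5 called genes with at least 1 CPM asked for in 3 libraries. GEM, a small GTPase, had 5.35 ± 1.03 CPM in S541 libraries and 1.47 ± 0.44 CPM in DMSO libraries (log2 fold change 1.87 ± 0.274, adjusted p = 0.00931). EGR1, a zinc finger factor induced alongside FOS, had 4.82 ± 0.553 CPM in S541 libraries and 1.75 ± 0.586 CPM in DMSO libraries (log2 fold change 1.47 ± 0.255, adjusted p = 0.0162). The nuclear receptor NR4A1 had 74.8 ± 8.62 CPM in S541 libraries and 41.2 ± 9.21 CPM in DMSO libraries (log2 fold change 0.86 ± 0.167, adjusted p = 0.0235). IER3, a survival gene of stress signals, had 202 ± 23.9 CPM in S541 libraries and 109 ± 33.5 CPM in DMSO libraries (log2 fold change 0.89 ± 0.217, adjusted p = 0.0462), and IER3-AS1 on the other strand covers 26.5% of its exon bases, while 10.3% are covered in NR4A1. GEM kept its call in every fit. EGR1 (adjusted p = 0.0512 to 0.0665), IER3 (adjusted p = 0.0741 to 0.125) and NR4A1 (adjusted p = 0.0574 to 0.0874) lost theirs without any S541 library or without DMSO replicate 3. EGR1 also lost it with the replicate number as a block, IER3 with no filter on low counts and NR4A1 without DMSO replicate 1. The list held 1 to 3 called genes in the fits without a library named here.

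Of 21 textbook AP-1 target genes tested, 11 rose and none fell, where 8.19% of all genes tested changed. The list median was 0.48. MMP1, MMP3, MMP10, MMP13 and SPP1 of the list had too few counts to be tested. MMP7 and MMP9 averaged 1.04 and 0.878 CPM in S541 libraries and 0.655 and 1.02 CPM in DMSO libraries, and neither passed. IL11, a cytokine of the interleukin-6 family, had 57.6, 54.3 and 58.9 CPM in S541 libraries and 7.36, 16.7 and 9.98 CPM in DMSO libraries (log2 fold change 2.32 ± 0.264, adjusted p = 0.00453). CXCL8, a neutrophil chemokine, had 9.46, 11.6 and 7.63 CPM in S541 libraries and 1.48, 2.52 and 1.81 CPM in DMSO libraries (log2 fold change 2.29 ± 0.252, adjusted p = 0.00421). Both were higher in 3 of 3 S541 libraries than in any DMSO library. AREG, a ligand of the EGF receptor, had 10.9 ± 1.09 CPM in S541 libraries and 4.00 ± 0.637 CPM in DMSO libraries (log2 fold change 1.44 ± 0.173, adjusted p = 0.00522). The list held 6 called genes without any 1 of the S541 libraries or without DMSO replicate 3, and 7 when genes of low count were kept in. CCND1, the cyclin often named as an AP-1 target, did not pass, at a log2 fold change of 0.11.

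Likeness to FOSL1 was measured as the Euclidean distance of centred log2 CPM over the 6 libraries, among 9849 genes with a mean of at least 10 CPM. The nearest protein-coding genes were CD68 at 0.393, DUSP4 at 0.412, PHLDA1 at 0.444, SPOCD1 at 0.496 and CYP26B1 at 0.587. DUSP4 and PHLDA1 are also named above among the ERK output genes. Their log2 fold changes were 1.71 and 1.79, against 2.01 for FOSL1, and the distance includes that difference between the groups. SPOCD1 had 22.2, 25.0 and 27.0 CPM in S541 libraries and 4.52, 4.92 and 4.48 CPM in DMSO libraries. CYP26B1, an enzyme that breaks down retinoic acid, had 76.4, 72.7 and 72.8 CPM in S541 libraries and 18.8, 31.3 and 20.2 CPM in DMSO libraries. CD68 had 25.7, 29.0 and 31.1 CPM in S541 libraries and 6.55, 9.84 and 5.93 CPM in DMSO libraries, but 81.7% of its exon bases are shared with other genes on its strand, so its counts are uncertain.

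The genes nearest to JDP2 were GLCCI1 at 0.271, ASPG at 0.28, ID3 at 0.297, ASS1 at 0.32 and AJUBA at 0.321. ID3, an inhibitor of helix-loop-helix factors, had 227, 243 and 276 CPM in S541 libraries and 356, 556 and 384 CPM in DMSO libraries. ASS1, the enzyme of arginine synthesis, had 772, 736 and 857 CPM in S541 libraries and 1170, 1720 and 1270 CPM in DMSO libraries. Both had their highest value in DMSO replicate 2, as JDP2 had, and lay below every DMSO library in all 3 S541 libraries. These likenesses include the difference between the groups, and they are descriptions over 6 libraries.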

How the data were processed

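Whole-number counts per gene were deposited by the authors. Aligner, counter and use of strand are not stated in the sources at hand. The build is hg38 and edgeR was used, per the submitters' processing notes. FPKM values, per the file headers, were deposited by the authors beside the counts. The authors' deposited comparison holds log2 fold changes and p-values with Q-values, of which only the log2 fold changes and marks are printed. The fit to 3 S541 and 3 DMSO libraries used edgeR 4.0.16 (R 4.3.3, TMM scaling, filterByExpr, group as the only term, 2-sided quasi-likelihood test). P-values were adjusted by Benjamini-Hochberg over 15847 genes, with 0.05 as the threshold. CPM is TMM-scaled.

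The subunit genes and the lists were chosen with earlier results of these data known. From each list, up to 4 called genes of largest log2 fold change are named if a group reached 1 CPM, and where none was called, its 2 most abundant. A gene that this rule names is not reported here. Gene models are GENCODE 29, whose coordinates matched 97.2% of identifiers. Alternatives were DESeq2 1.42.0, limma-voom 3.58.1, other scalings and filters, a replicate block and leaving out each library.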

Additional observations from a re-analysis of the deposited data

How the results depend on the processing

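The count of genes with an adjusted p under 0.05 was 1298, and it was 753 with no filter on low counts, 392 with the replicate number as a block and 349 to 1330 with single libraries left out. DESeq2 called 1790 genes, and library totals in place of TMM gave 771 higher and 604 lower, against 637 and 661. Among the pathway lists, the count of 33 was 20 with the replicate block and 17 to 34 with single libraries left out. The subunit genes past the threshold were 5, and 4 with no filter, with the replicate block and without S541 replicate 1, 2 or 3 or DMSO replicate 1, with JDP2 lost each time. The block is a fit on shared numbers: same-numbered libraries correlated at 0.104, -0.0811 and -0.0783 in their deviations from the group means, so the numbers were not taken to pair the libraries. No subunit's log2 fold change turned its sign. The median log2 fold change of all genes was at most 0.0251 under the other scalings, against -0.00193. The cause of the lower counts was not tested. At 98 to 187 counts in S541 libraries and 17 to 32 in DMSO libraries, FOSB was covered by few reads.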
